A study of Mus musculus with 4 samples.

Results

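Pannexin 1, the ATP-gated channels and the inflammasome form a route by which dendritic cells answer danger signals. Pannexin 1 is a membrane channel that releases ATP from stressed or dying cells. Extracellular ATP opens P2X channels, and the potassium efflux that P2X7 allows is a trigger of the NLRP3 inflammasome, in which the adaptor ASC joins the sensor to caspase-1. Caspase-1 matures IL-1β and IL-18 and cleaves gasdermin D, whose fragments form pores in the plasma membrane, while the ectoenzyme CD39 removes extracellular ATP. LPS primes this route in myeloid cells by raising transcripts of Nlrp3 and Il1b.

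The 10 genes described here are Panx1, P2rx7, P2rx4, Entpd1, Nlrp3, Nlrc4, Pycard, Casp1, Casp4 and Gsdmd, out of 22180 genes that the annotation pairs with a probe set of a single symbol. Each gene was represented by a probe set selected on its measured level, the highest mean over the 4 arrays among the probe sets that carry that symbol alone. Of the 10, 9 had 1 such probe set and Gsdmd had 2, so this choice bore on Gsdmd only. The list was drawn up around Panx1 with its difference in these arrays already known. That difference is therefore given as a description, with no test.

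Dendritic cells were grown from bone marrow of C57BL/6 mice, and those of the sulforaphane group were kept for 2 h in 0.3 µM sulforaphane dissolved in DMSO before 1 h with LPS (O111:B4 of E. coli, at 100 ng/ml), giving 2 arrays. Sulforaphane, an isothiocyanate of broccoli and related plants, activates NRF2, a transcription factor of the antioxidant response. The DMSO group had the solvent alone for 2 h and the same LPS for 1 h, also giving 2 arrays. Cells of both groups were harvested on day 7 of culture, and no group without LPS was analysed here, so priming by LPS itself was not measured. Nothing in the labels says whether replicates were separate mice or cultures, and p-values measure only the spread between these arrays, which may be technical.

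Array medians lay between 3.24 and 3.27 on the log2 scale, and interquartile ranges were 3.61 and 3.62 in the sulforaphane arrays, against 3.41 and 3.61 in the DMSO arrays, so DMSO replicate 1 stood apart. Over the genes tested, the SD of differences was 0.21 between sulforaphane arrays, 0.26 between DMSO arrays and 0.27 to 0.32 between groups. Of the markers fixed for dendritic cells, Itgax (CD11c) was at 11.33 and 11.32 in sulforaphane cells and 11.26 and 11.26 in DMSO cells. Flt3 and Zbtb46 were dimmer. The 10 annotated markers passed the filter on low signal (2.91), with Xcr1 barely above it at a mean of 2.92. Of the 10, 5 lay below 0. Irf4 differed most, by -0.87 (9.24 and 9.17 in sulforaphane cells, 10.05 and 10.10 in DMSO cells, adjusted p = 0.0565 by limma over all genes). All 8 annotated macrophage and monocyte markers, all 9 neutrophil markers and 7 of 8 mast cell and basophil markers also passed the filter on low signal. Some B cell and T cell markers passed it too, so passing does not show presence. By level, those myeloid lists averaged at least 6.32 on every array, against at most 3.51 for the B cell and T or NK cell lists. These cultures therefore held transcripts of several myeloid types. For every gene below, fewer cells of a type and less RNA per cell cannot be told apart. The mean log2 level of the macrophage and monocyte markers was 9.90 and 9.90 in the sulforaphane arrays, against 10.07 and 10.13 in the DMSO arrays. It ran from 7.86 to 7.89 against 7.99 to 8.13 for dendritic cell markers, from 6.32 to 6.42 against 6.55 to 6.59 for mast cell markers, and from 9.38 to 9.51 against 9.24 to 9.54 for neutrophil markers. The sulforaphane arrays lay below the DMSO arrays for the first 3 lists and overlapped them for neutrophils. No annotated marker passed the test over all genes, and the part of these shifts in the values below was not tested. B cell and T or NK cell markers averaged between 2.86 and 3.51 in all arrays. The T or NK cell list, near the filter, also lay lower with sulforaphane (2.86 to 2.94 against 2.999 to 3.001), so such a shift was not limited to myeloid lists. The B cell list overlapped. The filter was passed by 3 of 4 annotated B cell markers and 3 of 6 T or NK cell markers. Ms4a1, Cd3g, Ncr1 and Klrb1c were below it.

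Panx1 was the member that differed most. It measured 8.57 and 8.76 on the log2 scale in sulforaphane cells, against 7.12 and 7.30 in DMSO cells. Both sulforaphane arrays lay far above both DMSO arrays, while replicates differed by less than 0.2 in each group. The means were 8.66 ± 0.13 and 7.21 ± 0.13 (SD, n = 2 each), a difference of 1.45, which is 2.73-fold. In the fit over 14652 genes, 19 genes or 0.130% passed a Benjamini-Hochberg adjusted p of 0.05, 9 higher and 10 lower (34 and 72 after a second quantile normalization). With any 1 of the 4 arrays left out, the Panx1 difference ran from 1.36 to 1.54. Such a fit holds 1 array in a group and leaves 1 residual degree of freedom.

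The bases before the start of Panx1 are shown because it is the member that differed, and those of P2rx7 and Casp4 because they hold motifs of factors that sulforaphane or LPS engage. The windows are the 250 bases before the annotated start in RefSeq (GRCm38.p6), printed along the gene's strand from 5′ to 3′. They were searched on both strands for the core of the antioxidant response element (TGACNNNGC), which NRF2 binds with small MAF proteins, for the AP-1 element (TGACTCA) and for the NF-kB consensus. Capitals mark matches.
Panx1, chr9:15045479-15045728, minus strand: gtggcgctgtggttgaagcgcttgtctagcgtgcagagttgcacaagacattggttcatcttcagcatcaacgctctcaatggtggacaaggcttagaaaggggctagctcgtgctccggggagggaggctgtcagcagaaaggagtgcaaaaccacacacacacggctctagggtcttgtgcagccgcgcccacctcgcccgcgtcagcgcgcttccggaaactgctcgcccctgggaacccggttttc
P2rx7, chr5:122643677-122643926, plus strand: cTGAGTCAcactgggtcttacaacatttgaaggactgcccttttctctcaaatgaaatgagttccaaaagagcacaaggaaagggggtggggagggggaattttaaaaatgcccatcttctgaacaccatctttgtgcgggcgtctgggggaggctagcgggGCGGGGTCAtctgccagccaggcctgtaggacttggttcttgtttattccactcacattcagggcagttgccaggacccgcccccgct
Casp4, chr9:5308599-5308848, plus strand: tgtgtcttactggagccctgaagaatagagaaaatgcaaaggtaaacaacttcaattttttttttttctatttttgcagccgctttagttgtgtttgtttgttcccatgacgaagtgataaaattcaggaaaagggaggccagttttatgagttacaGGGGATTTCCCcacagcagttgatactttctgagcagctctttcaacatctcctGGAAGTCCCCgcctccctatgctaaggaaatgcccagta
The Panx1 window held none of the 3 motifs. The P2rx7 window held an antioxidant response element core 88 to 80 bases before the start and an AP-1 element 249 to 243 bases before it. The Casp4 window held overlapping NF-kB matches between 93 and 83 bases before the start and another at 39 to 30. The 9 members with a window had 13 windows in all. The antioxidant core was in 2 of the 13 (P2rx7 and P2rx4), the AP-1 element in 1 (P2rx7) and an NF-kB match in 3 (both of Casp4 and 1 of Nlrp3), while the other window of P2rx7 and that of Nlrp3 held none of the motifs. The 2 Casp4 windows, starting at 5308599 and 5308610, overlap and hold the same matches, so they are not separate counts. Over all 32851 windows of this length, 10.2% held the antioxidant core, 4.46% the AP-1 element and 7.25% the NF-kB consensus. A match is a run of letters, not a measured binding site, and its absence says nothing about a factor elsewhere in the gene.

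**Figure D1:**
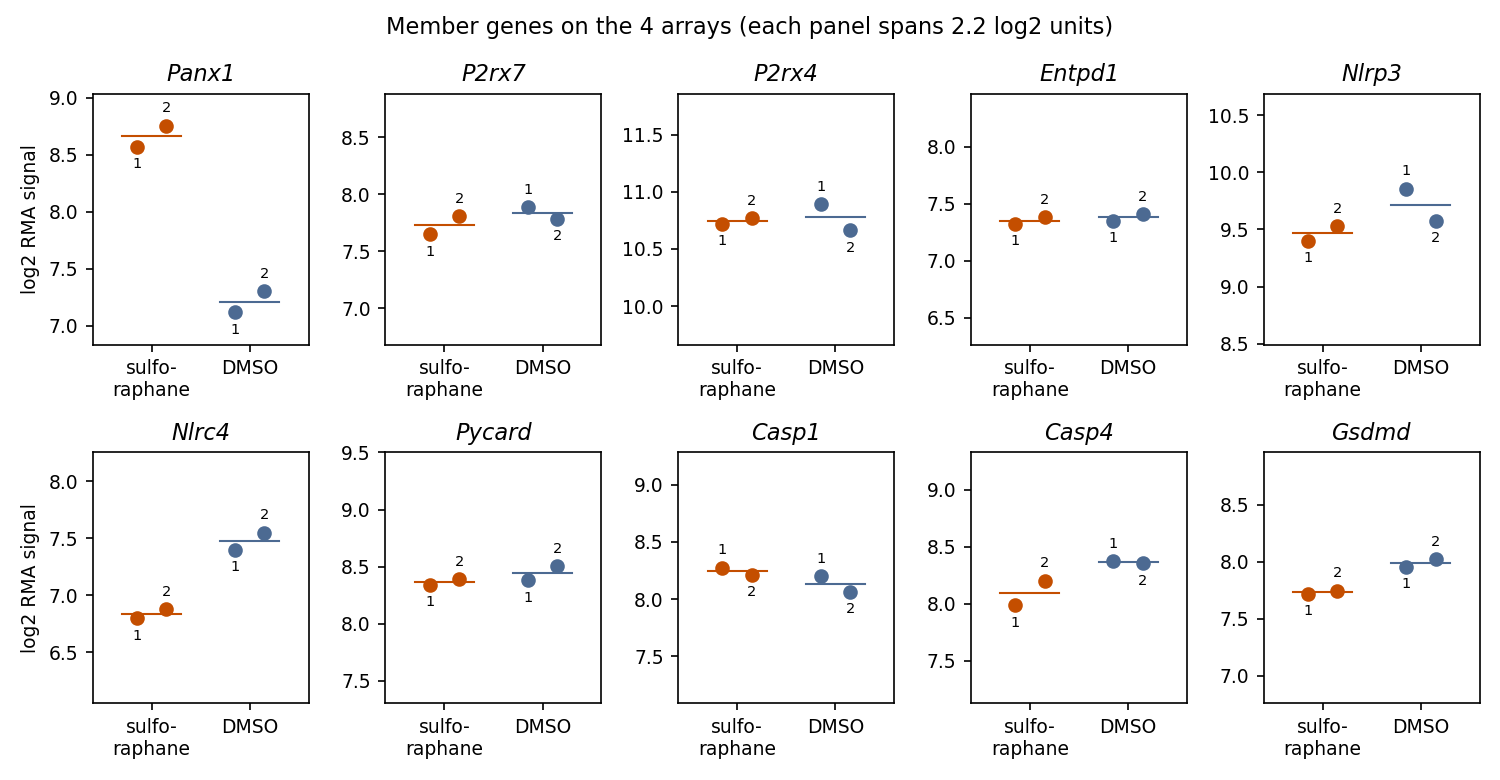
The log2 RMA signal of each member gene on the 4 arrays, with sulforaphane arrays left and DMSO arrays right in each panel, points numbered by replicate and a line at the group mean. Panx1 measured 8.57 and 8.76 with sulforaphane against 7.12 and 7.30 with DMSO, and Nlrc4 6.80 and 6.88 against 7.39 and 7.55, while P2rx4, P2rx7, Entpd1 and Pycard overlapped.

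The ATP-gated receptors and CD39, which act on the nucleotide that Panx1 releases, did not pass the test. P2rx7, the receptor that needs high ATP and opens a large pore, measured 7.65 and 7.81 in sulforaphane cells, against 7.89 and 7.78 in DMSO cells. Its arrays overlapped, and the difference was -0.11 (95% interval -0.40 to 0.18, adjusted p = 0.774 by limma over all genes), running from -0.19 to -0.028 with an array left out. P2rx4, a more sensitive ATP-gated channel found largely on lysosomes, measured 10.72 and 10.77 in sulforaphane cells, against 10.89 and 10.66 in DMSO cells. The DMSO arrays enclosed the sulforaphane arrays, and the difference of -0.031 (-0.33 to 0.27, adjusted p = 0.952) turned to 0.082 without DMSO replicate 1. Entpd1, which encodes CD39, measured 7.32 and 7.38 in sulforaphane cells, against 7.35 and 7.41 in DMSO cells. The difference was -0.029 (-0.29 to 0.23, adjusted p = 0.947), within the gap between replicates, and it was 0.00069 without sulforaphane replicate 1. The intervals of the 3 genes leave room for changes of up to 0.40 in size and none as large as that of Panx1. P2rx7 and P2rx4 lie on chromosome 5 with 2 annotated genes between them in GRCm38.p6.

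Of the inflammasome sensors, Nlrc4 had the larger difference. Nlrc4, which assembles with NAIP proteins that recognise flagellin and bacterial secretion systems, measured 6.80 and 6.88 in sulforaphane cells, against 7.39 and 7.55 in DMSO cells. The groups did not overlap, and the gap between them was several times that between replicates. The means were 6.84 ± 0.058 and 7.47 ± 0.11 (SD, n = 2 each), and the difference was -0.63 ± 0.12 SE (95% interval -0.92 to -0.35), or 1.55-fold higher in DMSO cells. Nlrc4 did not pass over all genes (adjusted p = 0.110 by limma), though it did with an intensity trend in the variance prior (adjusted p = 0.0392), and over 13 alternatives the adjusted p ran from 0.0392 to 0.520. Its difference ran from -0.71 to -0.56 with an array left out.

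Nlrp3, the sensor of potassium efflux and membrane damage, measured 9.40 and 9.53 in sulforaphane cells, against 9.86 and 9.58 in DMSO cells. Sulforaphane replicate 2 and DMSO replicate 2 lay close together, so the groups were only just separate. The difference was -0.25 ± 0.14 SE (-0.59 to 0.084, adjusted p = 0.515), and it ran from -0.39 without DMSO replicate 2 to -0.11 without DMSO replicate 1. Pycard, which encodes the adaptor ASC, measured 8.34 and 8.39 in sulforaphane cells, against 8.38 and 8.51 in DMSO cells, with overlap and a difference of -0.077 (-0.35 to 0.19, adjusted p = 0.839) that was -0.014 without DMSO replicate 2.

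The inflammatory caspases and gasdermin D differed by small amounts in both directions. Casp1, the protease of the canonical inflammasome, measured 8.28 and 8.21 in sulforaphane cells, against 8.20 and 8.06 in DMSO cells. It was the only other member above 0, with a difference of 0.11 (-0.16 to 0.39, adjusted p = 0.751) and groups that barely missed overlapping, and it was 0.043 without DMSO replicate 2. Casp4, which in mice encodes the LPS-binding protease caspase-11, measured 7.99 and 8.20 in sulforaphane cells, against 8.37 and 8.35 in DMSO cells. Both sulforaphane arrays were lower, and the difference of -0.27 ± 0.12 SE (-0.57 to 0.027) did not pass (adjusted p = 0.428) and was -0.16 without sulforaphane replicate 1. The 2 caspase genes neighbour each other on chromosome 9 with no annotated gene between them in GRCm38.p6.

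Gsdmd, the pore-forming substrate of both caspases, gave opposite answers on its probe sets. The brighter one measured 7.72 and 7.75 in sulforaphane cells, against 7.96 and 8.02 in DMSO cells, a difference of -0.26 ± 0.11 SE (-0.52 to 0.0037, adjusted p = 0.393). The dimmer one measured 5.10 and 5.23 in sulforaphane cells, against 4.93 and 4.84 in DMSO cells, a difference of 0.28 ± 0.12 SE (-0.0037 to 0.56, adjusted p = 0.402 with every probe set tested). Neither overlapped between groups, and their mean differed by 0.011, so no direction can be given for Gsdmd.

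**Figure D2:**
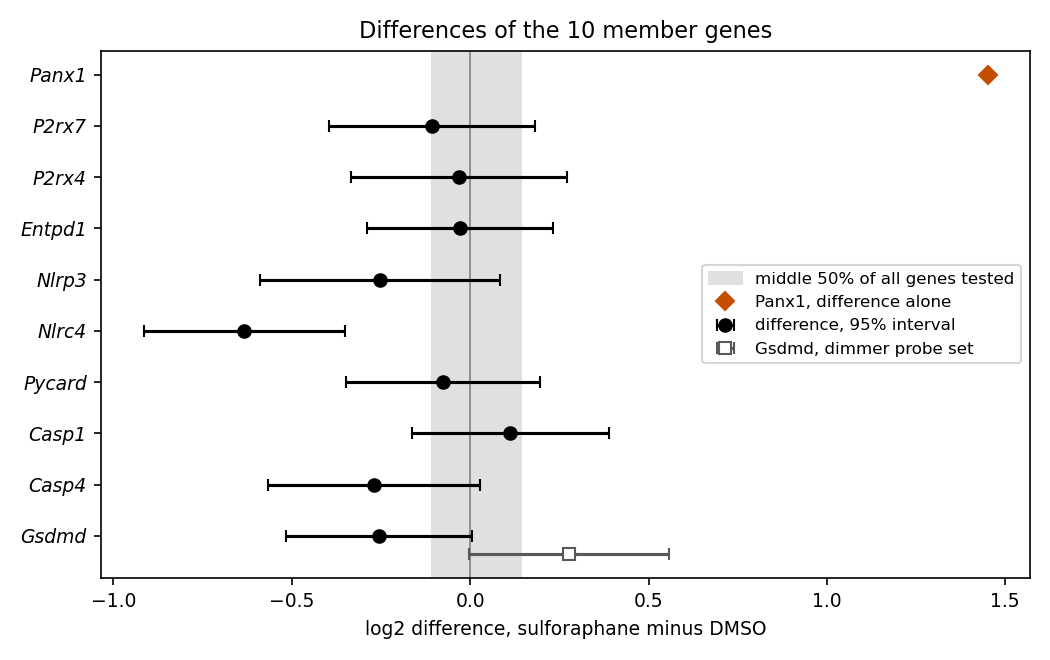
The log2 difference (sulforaphane minus DMSO) of each member with its 95% interval from limma, except that Panx1 is given as its difference alone (diamond), with the dimmer Gsdmd probe set as an open square and the middle 50% of all 14652 genes, from -0.11 to 0.14, shaded. Panx1 lies at 1.45 and Nlrc4 at -0.63, and the intervals of the other 8 genes include 0.

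Among the 9 members other than Panx1, 0 passed the threshold over all genes, where 0.130% of all genes did. Nlrc4 was the 1 of the 9 with an unadjusted p under 0.05, a level that 1899 genes, or 12.96% of those tested, reached. Of the 9, 8 lay below 0 on the probe sets used, with a median of -0.11, or 7 of 8 with a median of -0.092 when Gsdmd is left out, while 45.8% of all genes lay below 0 and their median was 0.018. The arrays did not overlap with sulforaphane lower in 3 (Nlrc4, Nlrp3 and Casp4), or 4 with the brighter Gsdmd probe set, against 19.5% of all genes, and with sulforaphane higher in 1 (Casp1), against 24.0%. For a single gene on so few arrays, the smallest two-sided p that exact permutation allows is 0.333.

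**Figure D3:**
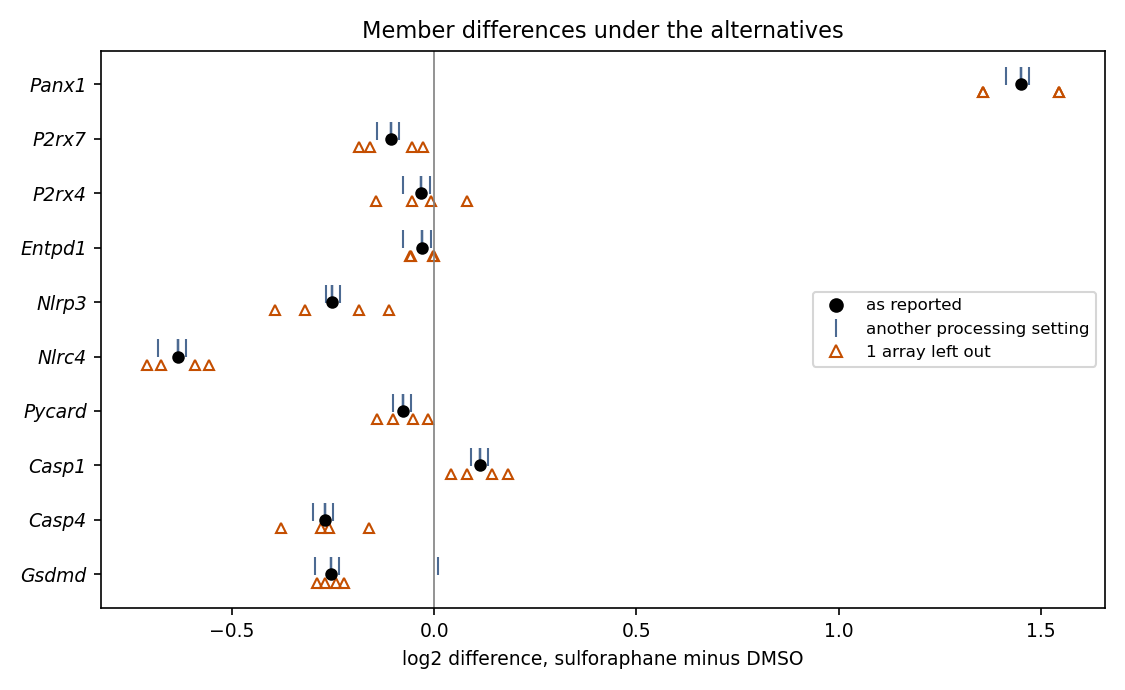
The log2 difference (sulforaphane minus DMSO) of each member as reported (black), under 9 other processing settings (bars) and with 1 array left out (triangles). Panx1 stays between 1.36 and 1.54 and Nlrc4 between -0.71 and -0.56, P2rx4 and Entpd1 cross 0 with an array left out, and Gsdmd crosses 0 with the mean of its probe sets.

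Genes of the same route were taken from 9 lists by role. Of 90 listed genes, 77 had a probe set of their own and 64 passed the filter on low signal. Over all genes, 0 of the 64 passed limma in the reported fit. Without adjustment, 16 had a p under 0.05, 3 higher and 13 lower, which is 25.0% of the 64 against 12.96% of all genes. The genes lay 24 above and 40 below 0, with a median of -0.055, while 45.8% of all genes lay below 0 and their median was 0.018. The lists were written with earlier results of these data known, so these shares describe the lists and do not test them. With 1 array left out in turn, 18 of the 33 genes named by rule from these lists moved by over 1.5 times. So did 7 of the 10 members (all but Panx1, Nlrc4 and Gsdmd). None of the 33 genes, and none of the members other than Panx1, had passed the threshold in the reported fit. These moves therefore say nothing about how stable a passing result is.

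Other sensors and NLR proteins differed in both directions. Nod2, the muramyl dipeptide sensor that signals to NF-kB, measured 6.39 and 6.66 in sulforaphane cells, against 7.39 and 7.67 in DMSO cells, a difference of -1.01 ± 0.15 SE (adjusted p = 0.0785). A dimmer Nod2 probe set lay in the same direction at -0.47. Nod1, the related peptidoglycan sensor, differed by -0.57 (adjusted p = 0.179), and Mefv, the pyrin sensor of RhoA inactivation, by -0.67 (0.0975). Naip2, which recognises the rod protein of bacterial secretion systems and hands it to NLRC4, lay the other way from Nlrc4. It measured 7.71 and 7.64 in sulforaphane cells, against 6.95 and 7.10 in DMSO cells, a difference of 0.65 ± 0.11 SE (adjusted p = 0.102). The Naip genes are near-identical copies, so probes may share signal among them, and this value is uncertain. Of the 14 tested genes of this list 8 lay above and 6 below 0, with a median of 0.016. An unadjusted p under 0.05 by limma was reached by 2 higher and 3 lower, or 35.7% against 12.96% of all genes.

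Receptors for nucleotides lay mostly below 0. Of 7 P2Y receptors tested 5 lay below 0, with a median of -0.14. P2ry13, an ADP receptor, measured 5.71 and 5.81 in sulforaphane cells, against 6.69 and 6.53 in DMSO cells. The groups were clearly apart, with a difference of -0.85 ± 0.12 SE (adjusted p = 0.0600). P2ry14, the UDP-glucose receptor, differed by -0.43 (adjusted p = 0.205), P2ry12, another ADP receptor, by -0.28 (0.510) and P2ry2, which binds ATP and UTP, by 0.22 (0.546). The difference was -0.097 for P2ry12 without DMSO replicate 2 and 0.089 for P2ry2 without sulforaphane replicate 2. All 5 other P2X genes lay below 0, where 45.8% of all genes did, with a median of -0.11. They ran from -0.24 for P2rx5 to -0.082 for P2rx3, with P2rx1 at -0.19 and P2rx2 at -0.11. Their adjusted p was at least 0.506. Levels averaged 8.28 for P2rx5, 6.63 for P2rx1 and 4.71 for P2rx3. P2rx2 at 2.95 and P2rx6 at 3.37 were close to the filter at 2.91. P2rx6 was named after its values were seen. Adora3 was the adenosine receptor gene tested and differed by -0.18 (0.638).

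The list of nucleotide-metabolising enzymes lay 4 of 8 above and 4 below 0, with a median of -0.0062. The 4 above 0 were Entpd5, which resides in the ER, Entpd6, Entpd7 and Ada. The 4 below 0 were Nt5e, Entpd8, Alpl and Entpd3. Entpd7, Ada, Alpl and Entpd3 were named after their values were seen. The list was not sorted by location, so these counts do not describe extracellular enzymes alone. Nt5e, which encodes CD73 and turns AMP into adenosine after CD39 has acted, measured 9.36 and 9.48 in sulforaphane cells, against 9.80 and 9.82 in DMSO cells, a difference of -0.39 ± 0.11 SE (adjusted p = 0.237). Entpd5, an ER-resident relative of CD39, lay at 0.32 (0.303), Entpd8 at -0.18 (0.615) and Entpd6 at 0.091 (0.847). The list of large-pore channels other than Panx1 also held Slc17a9 (-0.11), a nucleotide transporter gene named after its values were seen. The list lay 2 above and 8 below 0, with a median of -0.089, where 45.8% of all genes lay below 0. Those below 0 included Gjb2, Lrrc8e, Gja1 and Panx2, whose mean levels of 2.96 to 3.59 were near the filter at 2.91. Gjb2 and Gja1 were named after their values were seen. The VRAC subunits Lrrc8c (-0.31), Lrrc8b (-0.28) and Lrrc8e (-0.26) were below 0 and Lrrc8a, the subunit that VRAC requires, was above it (0.23), with adjusted p between 0.347 and 0.592. Lrrc8d, named after its values were seen, was also above 0 (0.17, adjusted p = 0.622). Lrrc8a was at 0.044 without DMSO replicate 1 and Lrrc8e at -0.15 without DMSO replicate 2. Panx2, the relative of Panx1 that passed the filter, measured 3.24 and 3.90 in sulforaphane cells, against 3.94 and 3.27 in DMSO cells, with wide overlap and a difference of -0.038. Panx2 was named after its values were seen.

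Substrates of the inflammasome and their inhibitors lay 1 above and 6 below 0, with a median of -0.28, where 45.8% of all genes lay below 0. Il1b measured 11.14 and 11.20 in sulforaphane cells, against 11.49 and 11.61 in DMSO cells, a difference of -0.38 ± 0.11 SE (adjusted p = 0.253). Il1rn, the receptor antagonist that opposes IL-1, differed by -0.28 (0.363). The serpins Serpinb9 (-0.64, adjusted p = 0.148) and Serpinb1a (-0.50, 0.232), inhibitors of granule and inflammatory proteases, lay further below 0. Il18, named after its values were seen, differed by -0.17 (0.798), with sulforaphane replicates 4.82 and 4.24 enclosing the DMSO values of 4.72 and 4.68.

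Potassium channels and inflammasome partners had a median of 0.0023 over 7 genes. Kcnk6, which encodes the potassium channel TWIK2 that acts with P2X7 in NLRP3 activation, measured 8.76 and 8.81 in sulforaphane cells, against 9.14 and 9.09 in DMSO cells, a difference of -0.33 ± 0.11 SE (adjusted p = 0.281). Nek7, the kinase that NLRP3 requires, differed by 0.18 (0.691) and Sugt1, a co-chaperone of NLR proteins, by 0.083 (0.850). Trim30a, a negative regulator of NLRP3, differed by -0.47 (0.485), with DMSO replicate 2 at 5.90 and DMSO replicate 1 at 5.14, and by -0.095 without DMSO replicate 2. Ninj1, which ruptures the plasma membrane after pore formation, differed by 0.33 (0.521) with overlap between groups, by 0.082 without DMSO replicate 2 and by 0.59 without DMSO replicate 1. Gsdme (0.17), Casp6 (0.10) and Casp9 (-0.048) had adjusted p of at least 0.603, and the list of caspases and effectors had a median of 0.10 over 5 genes.

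**Figure D4:**
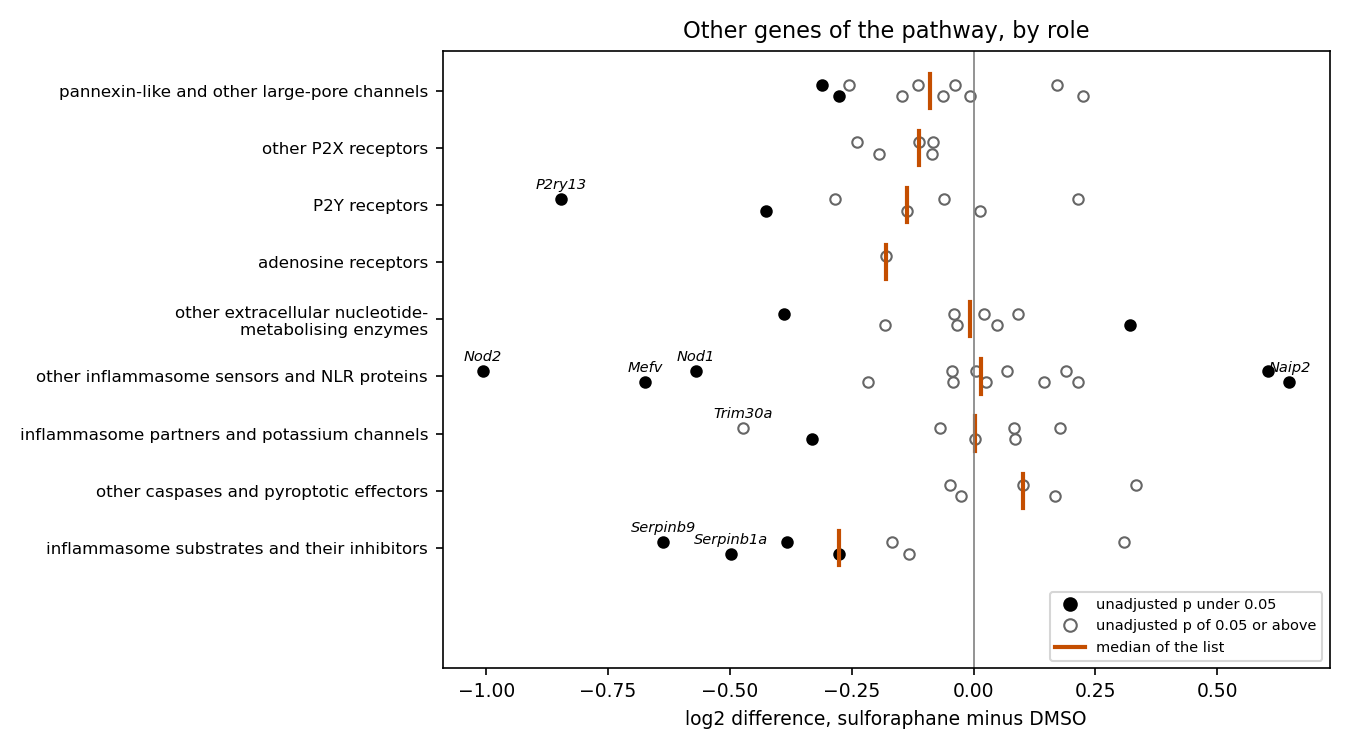
The log2 difference (sulforaphane minus DMSO) of the 64 tested genes in 9 lists of other pathway genes, with filled points for an unadjusted p under 0.05 and a bar at each list's median. Nod2 (-1.01) and P2ry13 (-0.85) lie lowest and Naip2 (0.65) highest, and none of the 64 passed over all genes in the reported fit.

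Profiles over the 4 arrays were compared with that of Panx1 by Euclidean distance of mean-centred log2 values. Members and genes whose symbol is that of a predicted gene were left out. Among the remaining tested genes, the 5 nearest were Osgin1, Frat1, Eid3, Proz and Slc40a1. Osgin1, an oxidative stress response gene, was nearest at a distance of 0.17, with 9.14 and 9.17 in sulforaphane cells and 7.46 and 7.71 in DMSO cells. Frat1 followed at 0.23, Eid3 at 0.31, Proz at 0.31 and Slc40a1, the iron exporter ferroportin, at 0.37. All 5 were higher with sulforaphane, with differences from 1.23 for Eid3 to 1.79 for Slc40a1. With 4 arrays in 2 groups, this distance mostly measures the size of the group difference.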

How the data were processed

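Gene expression was measured on 4 Affymetrix arrays, 2 per treatment, with cRNA made by the WT PLUS kit per the labels' protocols. The deposited table holds log2 values, and the submitters' processing notes name RMA and R 2.15.1. RMA corrects background, quantile-normalizes arrays and summarises probes. That the logs are to base 2 was inferred from RMA and the size of the values. Summarization level, filters and genome build: not given in the sources used here. Of 41345 probe sets, 23521 had exactly 1 symbol in the platform annotation, 1814 had several and 16010 had no entry. All 10 members matched RefSeq (GRCm38.p6) by Entrez identifier.

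Each gene kept the probe set with the highest mean, and 14652 genes above the 40th percentile (2.91) of probe set means were tested with limma 3.58.1 (lmFit, eBayes) in R 4.3.3, adjusted by Benjamini-Hochberg over all genes, threshold 0.05, with no replicate block. Errors are moderated SEs and intervals cover 95%. The number of arrays limits the precision, with 2 residual degrees of freedom and 4.02 prior ones. The procedure was tested on simulated data. The members, lists and tests were chosen with earlier results of these data known. The text names all members, up to 4 tested genes per list with the smallest unadjusted p and the 5 genes nearest to Panx1, except where a later choice is stated. Alternatives were 2 other filters, every probe set, the mean of probe sets, repeated quantile normalization, median centring, a replicate block, robust estimation, an intensity trend and each array left out.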

Additional observations from a re-analysis of the deposited data

How the results depend on the processing

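The number of genes past the threshold, 19 as reported, was 138 with the filter at the 60th percentile, 106 with a second quantile normalization (34 higher and 72 lower), 34 with the mean of probe sets, 249 with an intensity trend (96 higher and 153 lower) and 0 with any array left out, where 1036 to 2850 genes had an unadjusted p under 0.05. With the replicate block it was 8. Leaving out an array leaves 1 array in a group and 1 residual degree of freedom, so the counts of those fits say little. The replicate numbers carry no stated pairing, and deviations of same-numbered arrays correlated at -0.081 over 14652 genes. Of the 9 members other than Panx1, 1 passed with an intensity trend (Nlrc4) and 0 in the other 12 settings, including 0 with each array left out, when 1 to 2 of them had an unadjusted p under 0.05. Of the other pathway genes, 2 passed with the filter at the 60th percentile and 2 with a second quantile normalization (P2ry13 and Nod2 in both), 5 with an intensity trend (those with Naip2, Mefv and Serpinb9), and 0 with any array left out. The causes were not tested. Directions turned for Gsdmd with the mean of its probe sets (0.011), and for 5 genes with an array left out, where Entpd1 ran from -0.060 to 0.00069, Sugt1 from -0.024 to 0.19, P2rx4 from -0.14 to 0.082, Entpd6 from -0.064 to 0.25 and Casp6 from -0.0075 to 0.21. Of 555 differences recomputed, these 6 turned. The 2 other filters, every probe set, the replicate block, robust estimation and the intensity trend leave each difference unchanged. No direction could turn there. Panx1 alone of these genes passed as reported, so the others had no passing result to lose. No setting moved the median of all genes by more than 0.025.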
